A study of Mus musculus with 12 samples.

Results

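The 10 immediate early transcription factors Fos, Fosb, Jun, Junb, Atf3, Egr1, Egr2, Egr3, Nr4a1 and Ier2 were taken by symbol from the 55414 genes of the lung expression table, and each was listed once. All 10 were among the 15148 genes tested, which had at least 1 TPM (a level per transcript length, scaled to a common library total) in 6 or more libraries. The lungs came from mice on a C57BL/6 J background that were exposed to lipopolysaccharide (LPS), a bacterial cell wall component used to cause acute lung injury (ALI), and were taken on day 4. The 6 IL-10 B-KO libraries (the knockout lungs) came from mice that were IL-10 flox/flox crossed to mb1cre, a Cre active in the B cell lineage, which deletes Il10, the gene of interleukin (IL)-10, in B cells. The 6 IL-10 B-WT libraries (the control lungs) came from mice whose floxed and Cre alleles and whose age are not given in the sources used here. Both genotypes had received LPS, so that every comparison was between injured lungs, and lungs without LPS were not analysed here. The labels do not tie each library to a separate mouse, so that p-values measure the spread between these libraries, which may in part be technical.

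Immediate early genes are transcribed within minutes of a stimulus by factors already present in the cell, chiefly serum response factor (SRF) with its ternary complex partners downstream of ERK, and CREB. Their transcripts are short-lived, and their products switch on later genes and are in turn restrained by the phosphatases and RNA-binding proteins they induce. FOS and JUN family proteins pair to form activator protein-1 (AP-1), ATF3 pairs with JUN proteins and restrains inflammatory genes, the EGR proteins are zinc finger factors, NR4A1 is an orphan nuclear receptor, and IER2 is a nuclear protein of less well known action. LPS induces many of these genes in macrophages, neutrophils, endothelium and epithelium, all of which whole lung contains. In whole tissue, fewer cells of a type and less RNA per cell cannot be told apart.

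The sequences upstream of Fos, Jun, Junb and Nr4a1 are shown because these genes had the 4 lowest unadjusted p-values among the members, with Fos and Junb higher and Jun and Nr4a1 lower in knockout lungs. RefSeq promoter windows (GRCm38.p6) were matched for 7 of the 10 members, and not for Egr1, Egr3 and Ier2. Each window holds the 250 bases before the start site, 5′ to 3′ on the gene's strand. They lie at chr12:85473640-85473889 (plus strand) for Fos, chr4:95052223-95052472 (minus strand) for Jun, chr8:84978749-84978998 (minus strand) for Junb and chr15:101266596-101266845 (plus strand) for Nr4a1. Capitals mark TGACG, the core of the CREB recognition element, on either strand (CGTCA on the other), and in Jun TGACATCA, an AP-1-type element.
Fos: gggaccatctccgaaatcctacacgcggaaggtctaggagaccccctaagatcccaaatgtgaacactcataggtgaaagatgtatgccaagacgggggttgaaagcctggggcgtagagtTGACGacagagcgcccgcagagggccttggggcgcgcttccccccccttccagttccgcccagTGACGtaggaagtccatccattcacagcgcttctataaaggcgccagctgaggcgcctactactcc
Jun: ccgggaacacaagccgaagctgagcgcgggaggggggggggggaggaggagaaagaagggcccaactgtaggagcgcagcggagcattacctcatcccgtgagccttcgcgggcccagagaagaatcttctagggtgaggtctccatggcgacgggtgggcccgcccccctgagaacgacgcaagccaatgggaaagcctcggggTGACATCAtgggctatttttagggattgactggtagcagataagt
Junb: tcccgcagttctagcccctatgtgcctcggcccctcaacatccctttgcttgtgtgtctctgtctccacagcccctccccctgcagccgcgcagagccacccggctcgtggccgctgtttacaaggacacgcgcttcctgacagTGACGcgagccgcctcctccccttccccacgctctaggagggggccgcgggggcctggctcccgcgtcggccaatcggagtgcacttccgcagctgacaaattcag
Nr4a1: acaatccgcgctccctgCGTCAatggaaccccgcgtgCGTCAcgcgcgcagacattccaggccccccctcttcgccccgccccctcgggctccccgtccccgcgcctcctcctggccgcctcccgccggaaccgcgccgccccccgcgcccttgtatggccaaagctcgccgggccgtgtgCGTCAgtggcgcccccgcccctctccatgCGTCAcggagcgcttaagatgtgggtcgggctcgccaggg
In the Fos window TGACG stood 129 to 125 and 66 to 62 bases before the start, with TATAAA at 33 to 28. Junb held it at 106 to 102 and Nr4a1 at 233, 213, 69 and 40, all as CGTCA. Fosb held 1 such site and Atf3 1, whereas Jun and Egr2 held 0, and Jun held TGACATCA at 45 to 38. Of the 32851 RefSeq windows of this length, 17.8% held TGACG, 2.93% TGACATCA and 12.4% TATAAA on either strand. The CArG box, the recognition element of SRF, the palindrome TGACGTCA and the AP-1 element TGANTCA were in 0 of the 7 windows (TGACGTCA contains TGACG), and in 1.47%, 1.55% and 6.75% of all windows. Bases outside these 250 were not searched, so that 0 in a window does not show that the gene lacks the element. GCGNGGGCG, the recognition element of the EGR proteins, was in the windows of Fosb and Nr4a1 and in 4.70% of all. The Nr4a1 window begins inside the gene as GENCODE gives it, at a start site 12577 bases from the outermost one, and that of Atf3 lies 34706 bases from it. For Egr2, 1 of 5 windows was used, the nearest to the GENCODE start. These letter matches are descriptions and do not show binding, and TGACG and TGACATCA were added to the search after the windows had been read.

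The checks on the libraries were as follows. Il10 was listed at 0 to 0.88 TPM in all 12 libraries with overlapping genotypes (two-sided exact permutation test, p = 0.745, n = 6), so that it does not check the labels. Cd79a, the gene of the mb1 locus, was at 15.3 TPM or more in every control and at 5.73 TPM or less in every knockout library. Across the genes tested, control replicate 1 correlated more closely with the other genotype (median Spearman's rho 0.956) than with its own (0.876), as did knockout replicate 2 (0.927 and 0.912). Results that rest on these 2 libraries are given with and without them. Control replicate 3 was equally close to both (0.932 and 0.933). Control replicate 5 had the lowest median level of the 12 libraries and the fewest genes above 0 TPM (21380). Markers of the cell types other than B cells were above 0 in every library, and Cd79a was at 0 in 3 knockout libraries.

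Over the 12 lungs, 0 of the 10 members passed the threshold, an adjusted p of at most 0.05 (limma, Benjamini-Hochberg over all genes tested) and a difference of 1 or more on the log2 scale. Of all genes tested, 0.495% passed it, 0.0264% higher and 0.469% lower in knockout lungs. At an unadjusted limma p of at most 0.05, Fos was higher and Jun and Nr4a1 were lower in knockout lungs, 3 of 10 members beside 12.5% of all genes tested (6.83% higher and 5.71% lower). The split among all genes tested moved with the scaling, from 1034 higher and 865 lower to 735 higher and 982 lower with TPM rescaled without immunoglobulin genes. The genotypes overlapped in every member, while 1.02% of all genes tested showed no overlap. With TPM rescaled without immunoglobulin genes, Jun alone of the members no longer overlapped, where 1.09% of all genes tested did not. Of the log2 fold changes 5 were above 0 and 5 below, with a median of 0.01 beside 0.10 for all genes tested. The members thus had mixed signs between the genotypes.

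**Figure D1:**
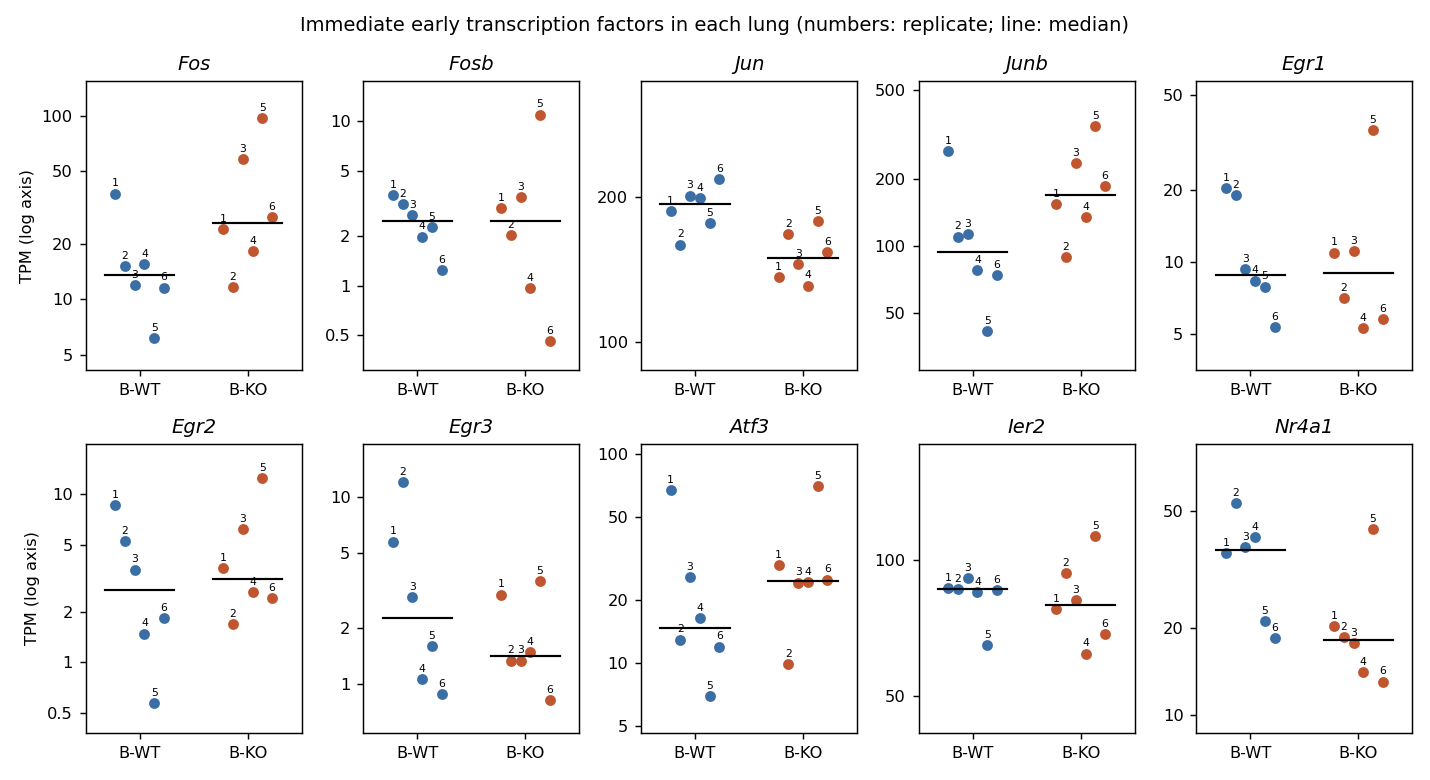
TPM of each member on a log axis in the 6 control (B-WT) and 6 knockout (B-KO) lungs, with 1 point per library, its replicate number and the median as a line. The genotypes overlap in each of the 10 panels, and knockout replicate 5 is the highest knockout lung in all 10.

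Fos (ENSMUSG00000021250, GRCm38 chr12:85473890-85477273, plus strand), the inducible partner of JUN proteins in AP-1, had the largest log2 fold change of the members. In control lungs it was lowest at 6.16, with a median of 13.6 and a highest value of 37.7 TPM. In knockout lungs the lowest was 11.7, the median 26.2 and the highest 97.1 TPM. The lungs of the genotypes overlapped, with knockout replicates 3 and 5 above all control lungs and control replicates 5 and 6 below all knockout lungs. The means were 16.4 ± 10.99 and 39.7 ± 32.4 TPM (SD, n = 6 each). The log2 fold change was 1.07 (SE 0.48, limma p = 0.0447, adjusted p = 0.381, exact permutation p = 0.0844). The exact permutation test was run on the mean log2(TPM + 1) of single genes and was two-sided throughout, and the smallest p that 6 lungs against 6 allow is 0.00216.

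Junb (ENSMUSG00000052837, GRCm38 chr8:84974484-84978718, minus strand), which encodes a JUN protein that can antagonize JUN, lay in the same direction. It ranged from 41.3 to 266.1 TPM in control lungs (median 93.8) and from 88.7 to 344.0 TPM in knockout lungs (median 169.5). The high control value was replicate 1, and the other 5 control lungs were at 113.1 TPM or less, 3 of them below every knockout lung. The log2 fold change was 0.85 (SE 0.40, limma p = 0.0551, adjusted p = 0.408, exact permutation p = 0.0887), from means of 113.6 ± 79.2 and 190.2 ± 89.8 TPM (SD, n = 6 each).

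Jun (ENSMUSG00000052684, GRCm38 chr4:95049034-95052222, minus strand), the partner common to most AP-1 dimers, lay in the opposite direction and varied least. In control lungs it was between 159.4 and 218.2 TPM (median 193.5), and in knockout lungs between 131.0 and 178.8 TPM (median 149.6). Most knockout lungs were low, 4 of 6 of them below every control lung, and the overlap came from knockout replicates 2 and 5 with control replicates 2 and 5. The means were 190.5 ± 20.7 and 152.2 ± 18.4 TPM (SD, n = 6 each). On the log2 scale the difference was -0.32 (SE 0.13, limma p = 0.0287, adjusted p = 0.353, exact permutation p = 0.0130). The exact p was the lowest of the 10 members and is not adjusted for the 10 tests. With TPM rescaled without immunoglobulin genes it was 0.00216, the smallest possible, as the lowest control lung (180.3 TPM) then lay just above the highest knockout lung (180.1 TPM), and the limma adjusted p was 0.290. The spread of Jun within a genotype was 0.17 on the log2 scale (SD), smaller than in all but 1.86% of the genes tested.

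Fosb (ENSMUSG00000003545, GRCm38 chr7:19302696-19310051, minus strand), a FOS family partner of JUN proteins, was low in most lungs. It was at 1.25 to 3.54 TPM in control lungs (median 2.48) and at 0.46 to 10.95 TPM in knockout lungs (median 2.49). The knockout lungs spread on both sides of the control lungs, with replicate 5 above and replicates 4 and 6 below all of them. The log2 fold change was 0.05 (SE 0.41, limma adjusted p = 0.969), and its sign turned with the pseudocount and the scaling.

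Atf3 (ENSMUSG00000026628, GRCm38 chr1:191170296-191218039, minus strand), the stress-induced factor of the ATF/CREB family, was highest in a single lung of each genotype. Control lungs ranged from 6.96 to 67.4 TPM (median 14.7) and knockout lungs from 9.86 to 70.1 TPM (median 24.8). Control replicate 1 and knockout replicate 5 stood apart at the top, and the next highest lung of either genotype was at 29.45 TPM. Its log2 fold change was 0.51 (SE 0.50, limma p = 0.318, adjusted p = 0.653, exact permutation p = 0.372), and between 0.24 without knockout replicate 5 and 0.88 without control replicate 1.

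Egr1 (ENSMUSG00000038418, GRCm38 chr18:34859823-34864984, plus strand), the most widely induced EGR factor, had nearly equal medians. It was between 5.36 and 20.3 TPM (median 8.845) in control and between 5.31 and 35.6 TPM (median 9.015) in knockout lungs. Only knockout replicate 5 lay above the control range, and the log2 fold change was -0.06 (SE 0.42, limma adjusted p = 0.962).

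Egr2 (ENSMUSG00000037868, GRCm38 chr10:67535475-67542188, plus strand), an EGR factor also known from macrophages and T cells, ranged from 0.57 to 8.63 TPM (median 2.70) in control and from 1.69 to 12.5 TPM (median 3.12) in knockout lungs. Its log2 fold change was 0.38 (SE 0.47, limma adjusted p = 0.726), and 0.09 without knockout replicate 5. Egr3 (ENSMUSG00000033730, GRCm38 chr14:70077203-70082614, plus strand), itself a target of other EGR and NFAT factors in lymphocytes, ranged from 0.88 to 12.0 TPM (median 2.25) in control and from 0.82 to 3.56 TPM (median 1.41) in knockout lungs. High Egr3 was a feature of control replicates 1 and 2, both above every knockout lung, and the other 4 lay within the knockout range. The log2 fold change of Egr3 was -0.49 (SE 0.44, limma adjusted p = 0.627), and -0.14 without control replicate 2.

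Nr4a1 (ENSMUSG00000023034, GRCm38 chr15:101254269-101274795, plus strand), which restrains inflammatory activation of macrophages, was the member with the largest log2 fold change below 0. Control lungs were between 18.4 and 53.3 TPM (median 37.0) and knockout lungs between 13.1 and 43.6 TPM (median 18.1). The knockout lungs were at 20.2 TPM or less apart from replicate 5, and control replicates 1 to 4 were at 36.1 TPM or more. The means were 34.6 ± 13.04 and 21.2 ± 11.3 TPM (SD, n = 6 each), and on the log2 scale they differed by -0.71 (SE 0.31, limma p = 0.0388, adjusted p = 0.378, exact permutation p = 0.0736).

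Ier2 (ENSMUSG00000053560, GRCm38 chr8:84661331-84662852, minus strand) was the steadiest member after Jun. It was between 64.8 and 91.5 TPM (median 86.2) in control and between 62.1 and 113.4 TPM (median 79.7) in knockout lungs. The knockout lungs spread on both sides of the control lungs, 2 above and 1 below all of them. The log2 fold change was -0.03 (SE 0.16, limma adjusted p = 0.945), and the spread within a genotype was 0.25 on the log2 scale (SD).

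By the median TPM, the order in control lungs was Jun, Junb, Ier2, Nr4a1, Atf3, Fos, Egr1, Egr2, Fosb and Egr3. In knockout lungs it was Junb, Jun, Ier2, Fos, Atf3, Nr4a1, Egr1, Egr2, Fosb and Egr3. Neighbours in these orders overlapped in their ranges with an exception in each genotype. In control lungs Ier2, at 64.8 TPM or more, was separate from Nr4a1, at 53.3 TPM or less, and in knockout lungs Jun, at 131.0 TPM or more, was separate from Ier2, at 113.4 TPM or less. The change of order between the genotypes was between Jun and Junb and among Nr4a1, Atf3 and Fos, whose order was reversed. The ratio of Fos to Nr4a1 TPM was between 0.284 and 1.04 in control lungs (median 0.350) and between 0.628 and 3.31 in knockout lungs (median 1.73), with 5 of 6 knockout lungs above every control lung and knockout replicate 2 the exception. The ratio of Junb to Jun TPM had medians of 0.475 and 1.16. These pairs were chosen after their values were seen, and their ratios were not tested.

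**Figure D2:**
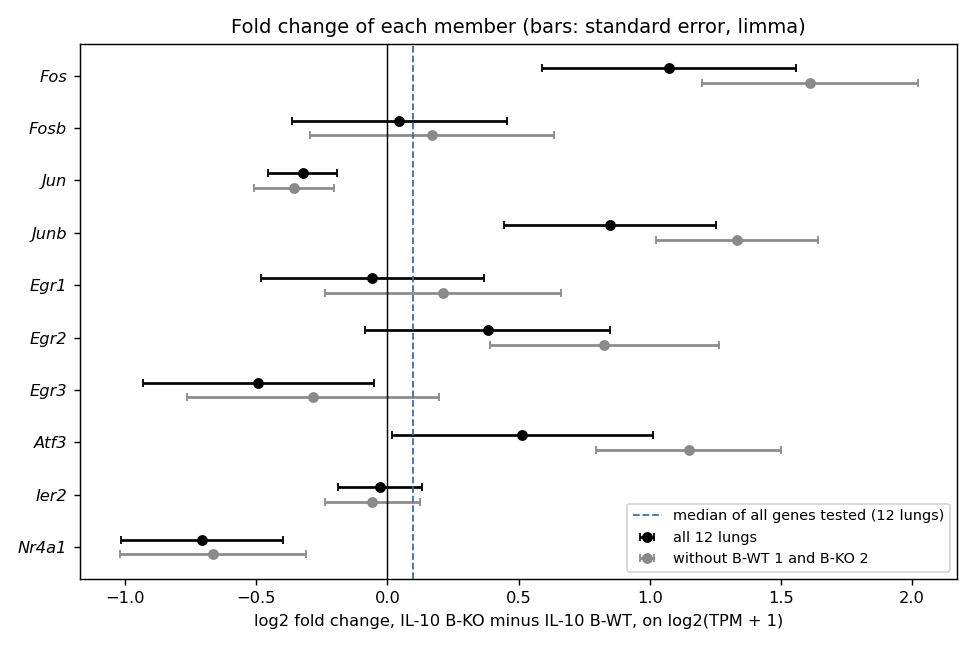
Log2 fold change of each member, knockout minus control, on the log2(TPM + 1) scale, with the SE from limma as bars. Black points use all 12 lungs and grey points leave out control replicate 1 and knockout replicate 2, and the dashed line at 0.10 is the median of all genes tested over 12 lungs. Fos, Junb and Atf3 lie farther above 0 in grey, and Jun and Nr4a1 lie below 0 in both.

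Leaving out control replicate 1 and knockout replicate 2 together moved 3 members past the threshold, all higher in knockout lungs, where 9.85% of all genes tested passed, 7.04% in that direction and 2.81% in the other. Fos then had a log2 fold change of 1.61 (SE 0.41, limma adjusted p = 0.0221), Junb of 1.33 (SE 0.31, limma adjusted p = 0.0141) and Atf3 of 1.15 (SE 0.35, limma adjusted p = 0.0457). In the same fit all 8 neutrophil genes and 7 of the 9 monocyte and macrophage genes passed as well, all higher in knockout lungs. So did 3 of 7 alveolar type 2, 2 of 7 fibroblast and 1 of 6 alveolar type 1 genes. Past the threshold and lower were 5 of 8 B cell, 4 of 5 red cell and 4 of 10 smooth muscle and pericyte genes. The same held for 3 of 10 endothelial and 3 of 6 ciliated and club cell genes, and 0 of 7 T cell genes passed. The 2 libraries were left out because their values resembled the other genotype, which by itself widens the difference, so that the 3 calls among the members are not independent support for it. Without control replicate 1 alone 0 members passed, while 3.99% of all genes tested did. Fos was then at 1.34 (limma adjusted p = 0.0968) and Junb at 1.14 (limma adjusted p = 0.0664). Nr4a1 and Jun kept log2 fold changes of -0.66 and -0.36 without both libraries.

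Markers of other cells were also compared over the 12 lungs. All 8 neutrophil genes had log2 fold changes above 0 (median 1.72), with a summed level of 286.1 to 2551 TPM in control and 1053 to 7661 TPM in knockout lungs. All 9 monocyte and macrophage genes were above 0 (median 1.48), with sums of 176.2 to 2508 and 434.1 to 3083 TPM, and 0 genes of either list passed the threshold. At an unadjusted limma p of at most 0.05 there were 8 of 8 neutrophil and 6 of 9 monocyte and macrophage genes, all higher. Of all genes tested, 6.83% were higher and 5.71% lower at that p. The same p was reached by 5 of 7 alveolar type 2 genes, all higher. It was also reached by 7 of 10 smooth muscle and pericyte, 6 of 8 B cell and 1 of 10 endothelial genes, all lower, and by 0 of 5 red cell genes. Of 7 T cell genes, 4 were above 0 and 3 below (median 0.09), with 0 at that p. All 10 smooth muscle and pericyte genes were below 0 (median -0.97), 2 of them past the threshold, and all 10 endothelial genes were below 0 (median -0.37), with sums of 2575 to 6595 and 2500 to 5735 TPM. The 7 alveolar type 2 genes were above 0 (median 0.96), the 8 B cell genes below 0 (median -1.96, sums of 72.9 to 911.8 and 13.1 to 91.5 TPM) and the 5 haemoglobin and haem genes of red cells below 0 (median -1.29, sums of 2958 to 96325 and 3523 to 22583 TPM). Their part in the differences of the members was not tested.

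Apart from genotype, the members tended to be high or low in the same lungs. Knockout replicate 5 was the highest of the 12 lungs for 7 members and the highest knockout lung for all 10. Control replicate 1 was the highest control lung for 6 members and among the 3 highest of 12 for 7. At the other end, control replicate 5 was lowest of all for Fos, Junb, Egr2 and Atf3. Between the lowest and the highest lung the levels differed 23.8-fold for Fosb, 21.9-fold for Egr2, 15.8-fold for Fos, 14.7-fold for Egr3, 10.1-fold for Atf3, 8.34-fold for Junb, 6.70-fold for Egr1 and 4.08-fold for Nr4a1, but 1.83-fold for Ier2 and 1.66-fold for Jun. The spread within a genotype (SD on the log2 scale) was 0.97 for Atf3 and 0.95 for Fos, at the 93.8 and 93.3 percentiles of the genes tested, whose median was 0.39.

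**Figure D3:**
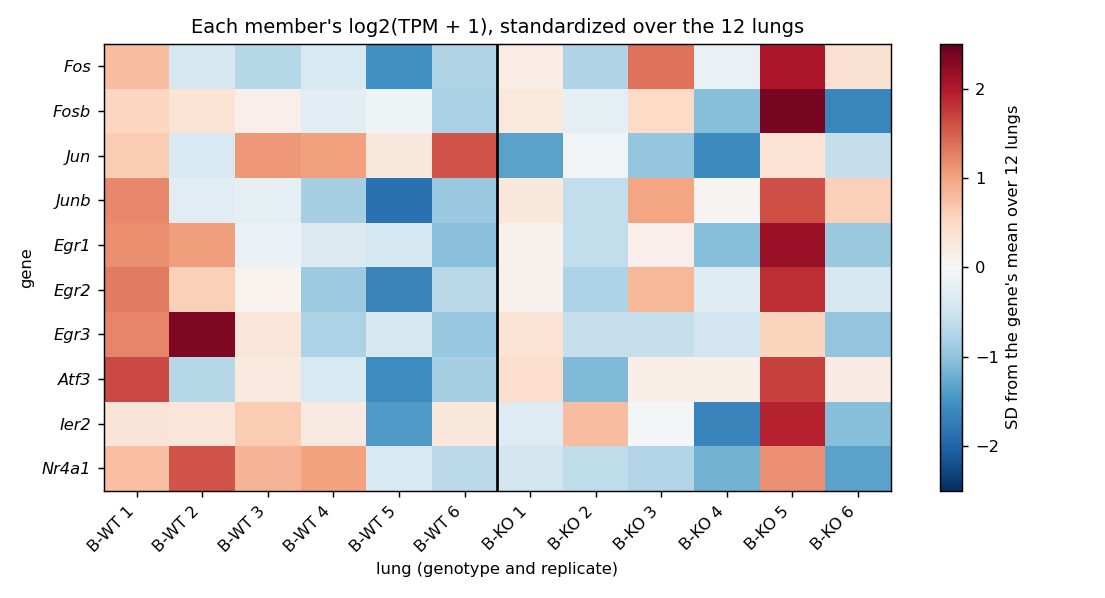
Each member's log2(TPM + 1) in each lung, as the number of SDs from the gene's mean over the 12 lungs, with red above and blue below the mean and a black line between the genotypes. The column of knockout replicate 5 is red in all 10 rows, and Jun is highest in control replicate 6.

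Of the 45 pairs of members, 44 had a Pearson's r above 0 over the 12 lungs after each genotype's mean was subtracted. The median r was 0.65 (SD over pairs 0.29) and the median Spearman's rho 0.61. With lungs permuted within genotype (100000 permutations, Benjamini-Hochberg over 45 pairs), 19 pairs passed an adjusted p of 0.05 by r, 13 by rho and 12 by both. Without the 2 lungs farthest from the median of the first gene of each pair, the median r was 0.44 and 38 pairs were above 0. Within the genotypes the median r was 0.61 over the 6 control lungs and 0.73 over the 6 knockout lungs. All libraries share a scaling to 1 total, and the other 15138 genes tested had a median r of 0.48 with the mean of the standardized members, so that much of the table moved with them. An r with a mean is not the same measure as an r between pairs. Pairs of genes outside the list were not computed, so that how far the members exceed them is unknown. After quantile normalization the median r between members was 0.43, with 32 pairs above 0, and after centring each library on its median it was 0.48, with 34 pairs above 0.

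The closest pair by r was Junb and Egr2, with r = 0.94 (permutation, adjusted p = 9.0e-04), rho = 0.89 (adjusted p = 0.00840) and r = 0.90 without the 2 farthest lungs. Fos and Junb, which form AP-1 together, had r = 0.92 (permutation, adjusted p = 0.00120), rho = 0.88 (adjusted p = 0.00840) and r = 0.86 without knockout replicate 5 and control replicate 1. Fosb and Egr1 had r = 0.91 (permutation, adjusted p = 9.0e-04), rho = 0.96 (adjusted p = 0.00135) and r = 0.88 without the 2 farthest lungs. Nr4a1 was closest to Egr1, with r = 0.86 (permutation, adjusted p = 0.00594), rho = 0.78 (adjusted p = 0.0249) and r = 0.82 without the 2 farthest. Some pairs rested on those lungs, as Fos and Egr1 went from r = 0.78 to 0.44. Jun stood aside over the 12 lungs, with a median r of 0.11 to the other members and 0 of its 9 pairs past the threshold. Its r went from -0.41 with Egr3 to 0.65 with Ier2. Within the 6 control lungs Jun had r = -0.77 with Egr3, -0.70 with Egr1 and 0.32 with Ier2. Within the 6 knockout lungs these were 0.21, 0.59 and 0.85, and all 45 pairs of members were above 0. The low r of Jun over 12 lungs thus joins unlike values of the genotypes, whose difference was not tested. Fos and Nr4a1, whose log2 fold changes between genotypes had opposite signs, had r = 0.59 (permutation, adjusted p = 0.0959), rho = 0.58 (adjusted p = 0.107) and r = 0.33 without knockout replicate 5 and control replicate 1, and did not pass.

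**Figure D4:**
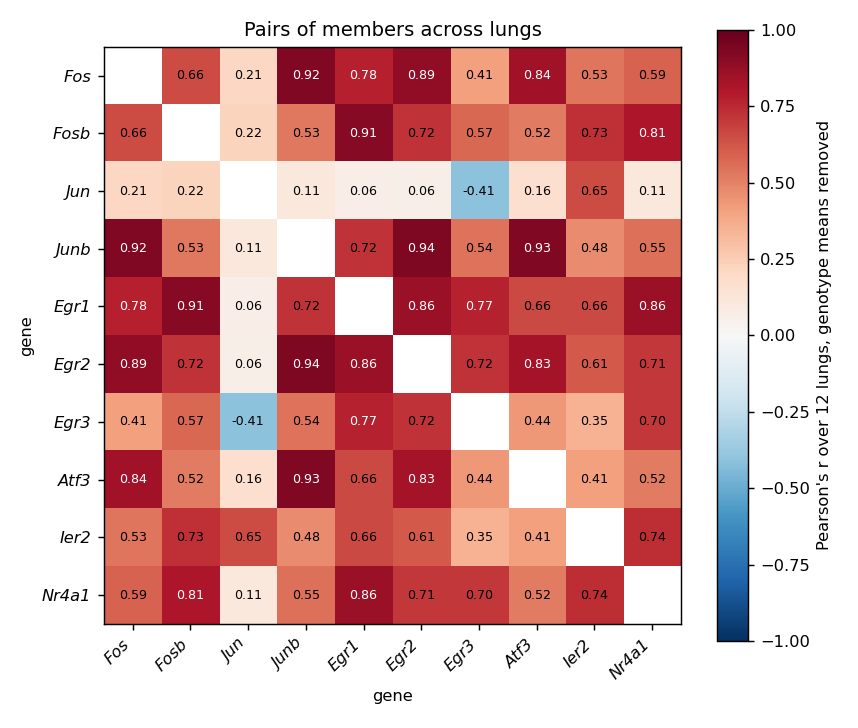
Pearson's r between each pair of members over the 12 lungs, from log2(TPM + 1) with each genotype's mean subtracted, on a color scale from -1 to 1. The row and column of Jun are pale, with r from -0.41 to 0.65, and Fos, Junb, Egr2 and Atf3 have r of 0.83 or more with each other.

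The 10 genes outside the list whose levels followed the mean of the standardized members most closely, again over 12 lungs with genotype means removed, were Trmt5 (r = 0.97, rho = 0.93), Phb (0.96, 0.99), Slco3a1 (0.95, 0.94), Aen (0.95, 0.92), Actg1 (0.95, 0.97), Zswim4 (0.95, 0.91), Lif (0.94, 0.89), Zfp36 (0.94, 0.87), Sdc4 (0.94, 0.91) and Eif5a (0.94, 0.94). Without the 2 farthest lungs their r was between 0.83 and 0.96. These genes were picked from 15138 by r over the same lungs, so that their r and rho are high by that choice. Their limma adjusted p-values between genotypes were between 0.401 and 0.958.

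Other genes of the response were read from lists written for this comparison. Of 10 further AP-1 and MAF family genes, 8 had log2 fold changes above 0 and 2 below (median 0.40), and 0 passed the threshold. The largest were those of Batf, a lymphoid and myeloid AP-1 factor, at 1.04 (limma adjusted p = 0.453), and of Fosl1, a FOS family factor, at 0.90 (limma adjusted p = 0.455). Fosl1 was at 0.03 to 1.71 TPM in control and at 0.35 to 14.0 TPM in knockout lungs.

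Of 22 other immediate early regulators, 20 were tested, without Egr4 and Arc. Of these 11 were above 0 and 9 below (median 0.07), 0 passed the threshold, and at an unadjusted limma p of at most 0.05 there were 5 higher and 3 lower, where all genes tested gave 6.83% and 5.71%. The 2 largest were Nfil3, a transcriptional repressor of circadian and cytokine genes, at 1.29 (limma adjusted p = 0.350) and Bhlhe40, a factor that limits Il10 transcription in T cells and macrophages, at 1.11 (limma adjusted p = 0.343). The sign was not shared here either. Klf10, a target of transforming growth factor beta, was at 21.3 to 32.4 TPM in control and at 33.3 to 55.0 TPM in knockout lungs. These ranges did not overlap, as in 1.02% of all genes tested, and the log2 fold change of Klf10 was 0.69 (SE 0.16, limma adjusted p = 0.0992). Klf4, a factor of vascular cells and macrophages, was at 66.5 to 150.9 and at 53.9 to 79.5 TPM, with a log2 fold change of -0.69 (SE 0.19, limma adjusted p = 0.164).

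The 2 relatives of Nr4a1 lay below 0 as it did. Nr4a2 was 3.55 ± 0.669 TPM in control and 1.96 ± 0.654 TPM in knockout lungs (SD, n = 6 each), which differed by -0.63 on the log2 scale (SE 0.17, limma adjusted p = 0.161), and Nr4a3 was 3.28 ± 1.18 and 1.68 ± 1.14 TPM, a log2 fold change of -0.72 (SE 0.28, limma adjusted p = 0.341). Klf10, Klf4, Nr4a2 and Nr4a3 were singled out after their values were seen.

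The list called feedback inhibitors held 22 genes. It joined phosphatases, RNA-binding proteins and corepressors that restrain the response with others such as Spry1, Socs3, Nfkbia, Nfkbiz and Gadd45a. Of the 22, 14 were above 0 and 8 below (median 0.14), and 0 passed the threshold. At an unadjusted limma p of at most 0.05 there were 0 higher and 2 lower. Dusp8, a phosphatase of JNK and p38, had an adjusted p below 0.05 but a log2 fold change smaller than the threshold of 1. It was at 7.55 to 11.2 TPM in control and at 3.58 to 6.46 TPM in knockout lungs, so that every knockout lung lay below every control lung (log2 fold change -0.81, SE 0.16, limma adjusted p = 0.0434). Of all genes tested, 1.02% showed no overlap between the genotypes. Socs3, an inhibitor of cytokine receptor signaling that STAT3 induces, had the largest log2 fold change of the list, at 1.21 (limma adjusted p = 0.448), with control replicate 1 at 259.6 TPM and the other 5 control lungs at 51.4 TPM or less.

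Of 20 upstream kinases and factors, 15 were above 0 and 5 below (median 0.15), with 0 past the threshold and 0 at an unadjusted p of at most 0.05. The largest were the kinases Mapkapk2, at 0.47 (limma adjusted p = 0.550), and Rps6ka3, at 0.43 (limma adjusted p = 0.506). Srf itself was 46.1 ± 15.3 and 37.0 ± 5.93 TPM (SD, n = 6 each; log2 fold change -0.26, limma adjusted p = 0.604). Of 12 heat shock and stress genes, 10 were above 0 and 2 below (median 0.15), and 0 passed the threshold. Hmox1, the haem-degrading oxygenase, had a log2 fold change of 2.36 (SE 0.80, limma adjusted p = 0.298) and the chaperone Hspa8 of 0.51 (limma adjusted p = 0.495).

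**Figure D5:**
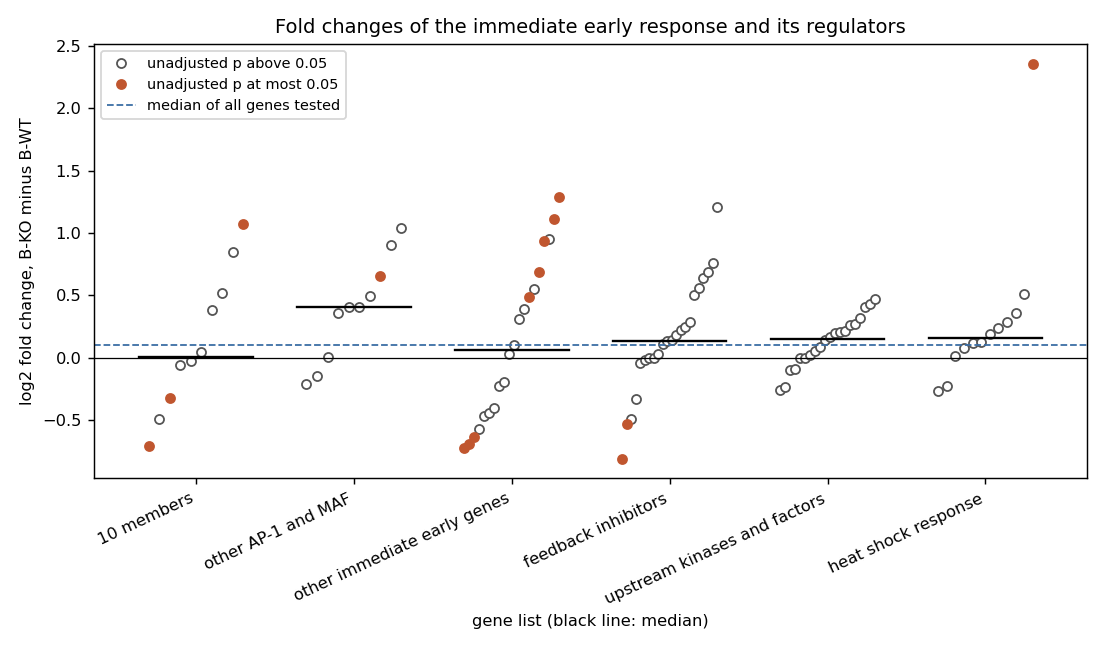
Log2 fold change, knockout minus control, of each tested gene in the list of 10 members and in 5 lists of related genes. Filled points have an unadjusted limma p of at most 0.05, black lines are list medians, from 0.01 for the members to 0.40 for the other AP-1 and MAF genes, and the dashed line at 0.10 is the median of all genes tested.

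Without control replicate 1 and knockout replicate 2, 9 of the 84 tested genes of these 5 lists (10.7%) passed the threshold, all higher in knockout lungs, beside 9.85% of all genes tested. They were Batf of the AP-1 and MAF genes, Ier3, Bhlhe40, Nfil3 and Cebpb of the other regulators, Socs3, Nfkbiz and Tnfaip3 of the feedback inhibitors, and Hmox1 of the stress genes. Nfkbiz and Tnfaip3 regulate NF-kappaB signaling and Cebpb is a myeloid transcription factor. Their log2 fold changes lay between 1.26 for Nfkbiz and 3.52 for Hmox1. Leaving out these 2 libraries, which lay closer to the other genotype, itself widens such differences.

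The lists also differed in how closely they followed the members between lungs. The median r with the mean of the standardized members was 0.74 for the other AP-1 and MAF genes, 0.73 for the other regulators, 0.72 for the upstream genes, 0.68 for the feedback inhibitors and 0.40 for the heat shock and stress genes, beside 0.48 for all other genes tested. The highest in these lists were Zfp36, which destabilizes cytokine transcripts, at 0.94 and Ccn1 at 0.92, and the lowest were Dusp8 at -0.44 and Mapk3 at -0.39. Of the cell type markers, neutrophil and alveolar type 2 genes had a median r of 0.66, monocyte and macrophage genes of 0.63, B cell genes of -0.07, endothelial genes of -0.56 and red cell genes of -0.78. The part of these cells in the shared variation of the members was not tested.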

How the data were processed

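The authors deposited 1 table of TPM per gene, made with RSEM, with a column for each library, and no columns were pooled here. The submitters' processing notes name fastp, HISAT and RSEM without versions and the build GRCm38.p5. TPM hold no read depth (columns summed to 991646 to 994430), so that counting error is unknown, count models do not apply and precision comes only from the 6 libraries per genotype. The table had 0 unused sample columns, and 0 pairs of libraries were identical.

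Each gene with 1 TPM or more in 6 or more libraries was tested on the log2(TPM + 1) scale by genotype alone, with limma 3.58.1 (trended eBayes) in R 4.3.3. Fold changes on this scale understate those of genes with low TPM. Genes were called at a Benjamini-Hochberg adjusted p of at most 0.05 and a difference of 1 on the log2 scale. The paper's methods give a fold of change without a scale, read here as log2, and list several tools without saying which produced the reported genes. Exact permutation tests, correlations and plots used SciPy 1.17.1, NumPy 2.4.6, pandas 2.3.3 and matplotlib 3.10.9 in Python 3.11.15. Gene positions are from GENCODE M21 (GRCm38), which matched 52081 of 55414 gene IDs.

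The members and lists were chosen with earlier results of these data known. Named were all members, Il10, Cd79a, in each list the called genes or else the 2 with the largest differences, and the 10 genes most like the members, with others marked in the text. The procedures were tested on simulated data. Alternatives were another pseudocount, other filters and scalings, array quality weights, a block for the replicate number, every library omitted in turn and, added after seeing the data, 2 libraries omitted together.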

Additional observations from a re-analysis of the deposited data

Results flagged for a closer look

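Among the 20 groups of 6 lungs (10 members in both genotypes), 8 held a lung whose gap to the nearest other exceeded Dixon's critical value for 6 samples, where chance gives about 1 in 20 for normally distributed values. The ratio was taken on TPM. On the log2(TPM + 1) scale, added after seeing the data, 3 of the 8 still exceeded it, namely knockout replicate 5 for Egr1 and Nr4a1 and control replicate 5 for Ier2, and 5 did not. Control replicate 1 stood apart as the highest of its genotype for Fos (37.7 TPM), Junb (266.1 TPM) and Atf3 (67.4 TPM). Knockout replicate 5 was the highest of its genotype by such a gap for Fosb (10.95 TPM), Egr1 (35.6 TPM), Atf3 (70.1 TPM) and Nr4a1 (43.6 TPM). For Ier2, control replicate 5 stood apart as the lowest of its genotype (64.8 TPM). Since pairs of members correlated between lungs, these 8 are not independent of each other.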

How the results depend on the processing

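Over the alternatives, Fos and Junb kept log2 fold changes above 0 and Jun and Nr4a1 below 0. With each library left out in turn they lay between 0.75 and 1.34 for Fos, 0.61 and 1.14 for Junb, -0.37 and -0.28 for Jun, -0.93 and -0.57 for Nr4a1, 0.24 and 0.88 for Atf3, 0.09 and 0.65 for Egr2, and -0.70 and -0.14 for Egr3. The number of members past the threshold was 0 to 0 in these 12 analyses and 3 without control replicate 1 and knockout replicate 2, and the number at an unadjusted p of at most 0.05 was 0 to 4. Jun had an adjusted limma p of 0.0466 with array quality weights (log2 fold change -0.42), and over the alternatives that keep all libraries its adjusted p lay between 0.0466 and 0.540. Control replicate 5 had the smallest of these weights (0.157). The labels do not say whether the replicate numbers pair the samples. The deviations of libraries with the same number correlated between -0.29 and 0.05, which cannot show whether they were paired. With the number as a block, 0 members had an unadjusted p of at most 0.05 and 45 genes passed. Of all genes tested, 75 passed over 12 lungs, 6 with no filter, 39 with quantile normalization, 36 with median centring, 318 with array quality weights and 1492 without the 2 libraries. Leaving out each library gave 19 to 604, with 19 without knockout replicate 1 or 5 and 604 without control replicate 1. Median centring moved the median log2 fold change of all genes tested from 0.10 to -0.0085, and quantile normalization moved it to 0.0054. The sign of Fosb turned with a pseudocount of 0.1 (-0.086 in limma and in the exact permutation test), quantile normalization (-0.0048), median centring (-0.062) and array quality weights (-0.13), and ranged from -0.31 to 0.30 with each library left out. Egr1 ranged from -0.40 to 0.12 and Ier2 from -0.12 to 0.047, and Egr1 was at 0.21 without the 2 libraries. In the lists, without the 2 libraries 1 AP-1 and MAF gene, 4 other regulators, 3 feedback inhibitors and 1 stress gene passed. With array quality weights 1 stress gene passed, and with each library left out 0 to 1 other regulators and 0 to 1 stress genes. Among the analyses that leave out 1 library, the median r between members was lowest without knockout replicate 5 (0.47) and highest without knockout replicate 2 (0.70), and without the 2 libraries it was 0.74. Fosb, Egr2 and Egr3 had no value at a mean TPM of at least 5. The cause of these changes was not tested.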
